A study of Mus musculus with 132 samples.

Results

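Expression of 6 genes of blastocoel formation was measured in single cells of mouse embryos: Atp1b1 and Atp1b3, which encode beta subunits of the sodium pump, and Aqp3, Aqp8, Aqp9 and Aqp11, which encode aquaporins. They form a list drawn up with earlier results of these data known and were taken from the table by gene symbol, and all 6 were found among the 32245 genes of the table. The embryos came from matings of C57BL/6 x DBA F1 mice (C57BL/6NCrl x DBA/2NHsd by the study's methods) and were cultured from the 2-cell stage in medium that held a mimic of the microRNA miR-381-3p, a synthetic double of it, or, for controls, the same concentration of a scrambled mimic. Cells were taken at the 8-cell stage (embryonic day 2.5; 30 control and 24 mimic cells) and at the 32-cell stage (embryonic day 3.5; 39 control and 39 mimic cells), 132 cells in all, and their polyadenylated RNA was sequenced with Smart-seq2. The mimic was given at 5 or 10 µM, and the labels do not state which dose a cell received. By the study's own account the dose differed between the stages. A comparison of stages is therefore also one of doses, of the mimic in mimic cells and of the scrambled mimic in control cells. Each group came from 3 to 5 embryos, but no label ties a cell to its embryo. Each group was therefore handled as 1 sample, and no difference between groups was tested.

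The blastocoel is the fluid-filled cavity of the blastocyst. In the trophectoderm (TE), the outer epithelium of the embryo, the sodium pump moves sodium ions towards the inside of the embryo and water follows the salt. The pump joins a catalytic alpha subunit to a beta subunit that is needed for its folding and its delivery to the cell membrane. Aquaporins are membrane channels for water, and some, the aquaglyceroporins, also pass glycerol. The inner cell mass (ICM) is the group of cells enclosed by the TE.

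The mimic carries the sequence of miR-381-3p, shown here because it is the agent that the treated groups received. The mature mouse sequence is encoded on chromosome 12 (109726870 to 109726891, plus strand, GRCm38) and is taken from RefSeq. Capitals mark the seed, bases 2 to 8, which pairs with target messenger RNAs.
mmu-miR-381-3p: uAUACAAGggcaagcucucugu
The longest annotated 3′ untranslated region (3′ UTR) of each of the 6 genes was searched on its sense strand for the 8-base match CTTGTATA and for the 7-base matches CTTGTAT and TTGTATA, both of which lie within the 8-base match. Atp1b3 held 1 match, a TTGTATA that starts 766 bases after the stop codon. It is shown because it is the single match in these genes, and it lies at chr9:96332752-96332758 on the minus strand (mm10), with the match in capitals.
Atp1b3 site: caagatataaaTTGTATAgtttttcaaac
Among 20775 genes with an annotated 3′ UTR, 13.2% held TTGTATA apart from the 8-base match and 21.6% held any of these forms. The 3′ UTRs of Atp1b1, Aqp3, Aqp8, Aqp9 and Aqp11, 548 to 2619 bases long, held none of these letters. A match is a run of letters and not a measured site. The levels of Atp1b3 beside this match are given below, and Atp1b3 was at 0.876 times its control level in 8-cell mimic cells and at 1.12 times its control level in 32-cell mimic cells. Neither direction held under every alternative: the 8-cell log2 difference was 0.47 in place of -0.19 against the 2 control cells whose numbers adjoin those of the mimic cells, and the 32-cell one was -0.06 in place of 0.16 with cells thinned to equal counts and -0.02 with means over cells.

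The depth of a cell lay between 544866 and 3461022 counts. Levels are counts per 1000000 counts without mitochondrial genes (CPM), summed over the cells of a group and divided by their summed total, with an exact Poisson 95% interval. The reads carried no molecular identifiers, so these intervals hold counting error alone and leave out how cells or embryos vary. A count of 0 in a whole group allows up to 0.0527 to 0.0971 CPM (3 counts), and in the shallowest cell of each group up to 3.87 to 5.75 CPM. Of the 24 8-cell mimic cells, 3 stood apart with 3234 to 4873 genes with a count, against 5910 or more in every other cell. Cells of a stage share 1 suffix in their titles, so a batch that it may mark cannot be told apart from stage. The numbers in the titles form blocks with gaps between them, and no label says what a block is. At each stage 1 block runs on across treatments: at the 8-cell stage mimic cells 63 to 86 are followed by control cells 87 and 88, and at the 32-cell stage the last block holds 12 mimic, 15 control and 9 mimic cells in that order. The other blocks hold 1 treatment each. Stretches of 1 treatment within a block are called runs below, and treatments were also compared within the blocks that hold both. Transcripts of Xist and of Y-linked genes split the 32-cell groups: all 39 control cells had Y-linked transcripts at 88.7 CPM or more, and all 39 mimic cells had Xist at 249.9 CPM or more with at most 1.2 CPM of Y-linked transcripts. Treatment at the 32-cell stage and this split cannot be told apart. The 6 cumulus cell markers looked for (Amh, Foxl2, Has2, Ptx3, Tnfaip6, Fshr) summed to at most 14.4 CPM in any cell, and 4 or 5 of them were at 0 in each group.

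A difference was called 2-fold when log2(CPM + 1) differed by 1 or more between groups, among genes at 5 CPM or more in either of them. This is a rule of size and no test. From 8-cell to 32-cell control cells, 5 of the 6 genes passed the filter. Atp1b1 was higher, in a comparison where 31.1% of all 10348 genes that passed were higher, and Aqp9 and Aqp11 were lower, where 22.5% of all genes were lower. The median log2 difference was -0.64 over these 5 genes and 0.20 over all genes. From 8-cell to 32-cell mimic cells the calls fell on Atp1b1 (31.8% of 10518 genes higher) and on Aqp9 and Aqp11 (20.2% lower). In mimic cells Atp1b1 passed the filter only through the 32-cell group. Counts as small as these describe single genes and not the list.

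Atp1b1 (chromosome 1, 164437109 to 164458355, minus strand, mm10) was the gene with the larger stage difference of the pump subunits. It was at 8.96 CPM (95% interval 8.01 to 9.98) in 8-cell control cells and at 220.0 CPM (216.2 to 223.9) in 32-cell control cells, a ratio of 24.6 (22 to 27.5). The 8-cell control level was 12.5 CPM over 23 cells with Xist only and 0.502 CPM over 6 with Y-linked transcripts only. All 39 32-cell control cells had Y-linked transcripts, so the ratio also crosses this split. Of the 30 8-cell control cells 13 had a count, with a lowest and median value of 0 and a highest of 46.7 CPM. Of the 39 32-cell control cells 38 had a count, with a lowest value of 0, a median of 180.3 CPM and a highest of 423.3 CPM. The 38 cells with a count all lay above the highest 8-cell cell, and the groups overlapped through the 1 cell at 0.

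In mimic cells Atp1b1 was lower by the rule at the 32-cell stage and not called at the 8-cell stage. At the 8-cell stage it was at 4.92 CPM (4.17 to 5.76), with a count in 8 of 24 cells, a median of 0 and a highest value of 34.4 CPM. At the 32-cell stage it was at 81.9 CPM (79.5 to 84.3), with a count in 35 of 39 cells, a lowest value of 0, a median of 64.9 CPM and a highest of 331.4 CPM. The ratio of mimic to control was 0.372 (0.359 to 0.385) at the 32-cell stage, a log2 difference of -1.42. Of the 39 mimic cells 32 lay below the control median, 7 above it and 0 above the highest control cell, so the ranges overlapped widely. It was the 1 member called at the 32-cell stage, where 7.38% of 10050 genes were lower in mimic and 11.5% higher, and 3.74% of genes had a lower log2 difference.

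The runs of consecutive cell numbers gave the same order for Atp1b1 at the 32-cell stage. In order of number, the first run of control cells (24 cells) stood at 220.7 CPM and the second (15 cells) at 219.1 CPM. The first run of mimic cells (18 cells) stood at 74.6 CPM, the second (12 cells) at 87.3 CPM and the third (9 cells) at 85.3 CPM. Within the block that holds both treatments the log2 difference was -1.33, from 86.3 CPM in 21 mimic and 219.1 CPM in 15 control cells. At the 8-cell stage the mimic to control ratio was 0.549 (0.450 to 0.667) and its log2 difference of -0.75 was not called. It was not steady there: among cells with Xist only, the level of Atp1b1 was 12.5 CPM over 23 control cells against 2.23 CPM over 11 mimic cells, and among cells with Y-linked transcripts only it was 0.502 CPM over 6 control cells against 13.5 CPM over 7 mimic cells. Leaving out mimic cell 82 alone made the log2 difference -1.14, and leaving out cell 85 also took it past the rule. Nme7 overlaps Atp1b1 on the opposite strand, and reads of a protocol without strand cannot be told apart between such genes.

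Atp1b3 (chromosome 9, 96332655 to 96364442, minus strand) encodes a further beta subunit and was present throughout. It was at 235.2 CPM (230.3 to 240.2) in 8-cell control, 206.0 CPM (201.0 to 211.2) in 8-cell mimic, 151.1 CPM (147.9 to 154.3) in 32-cell control and 169.1 CPM (165.7 to 172.7) in 32-cell mimic cells. Single cells ranged from 66.8 to 768.3 CPM with a median of 210.5 in 8-cell control and from 0 to 453.8 CPM with a median of 181.6 in 8-cell mimic. They ranged from 1.10 to 449.0 CPM with a median of 153.4 in 32-cell control and from 1.2 to 430.9 CPM with a median of 156.3 in 32-cell mimic. The ranges overlapped in every pair of groups, and no comparison called this gene. Both 8-cell mimic cells at 0 were among the 3 with few genes, and without these 3 the 8-cell mimic level was 228.1 CPM.

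Compared per kilobase of the longest transcript, the pooled levels of the beta subunits stood in a different order in some groups. In 8-cell control cells Atp1b3 stood at 117.95 and Atp1b1 at 3.47 CPM per kilobase. In 32-cell control cells Atp1b1 stood at 85.3 and Atp1b3 at 75.8 CPM per kilobase. This order held for pooled levels and not for medians over cells, which were 69.9 for Atp1b1 and 76.9 for Atp1b3, and it differed between the classes of control cells described below. In TE-like control cells Atp1b1 was the higher both pooled (104.7 against 66.9) and by medians (85.4 against 65.3), and in ICM-like control cells Atp1b3 was the higher pooled (82.4 against 70.8) and by medians (102.9 against 69.4). In 32-cell mimic cells Atp1b3 was the higher by either measure, at a pooled 84.8 against 31.7 CPM per kilobase for Atp1b1.

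**Figure D1:**
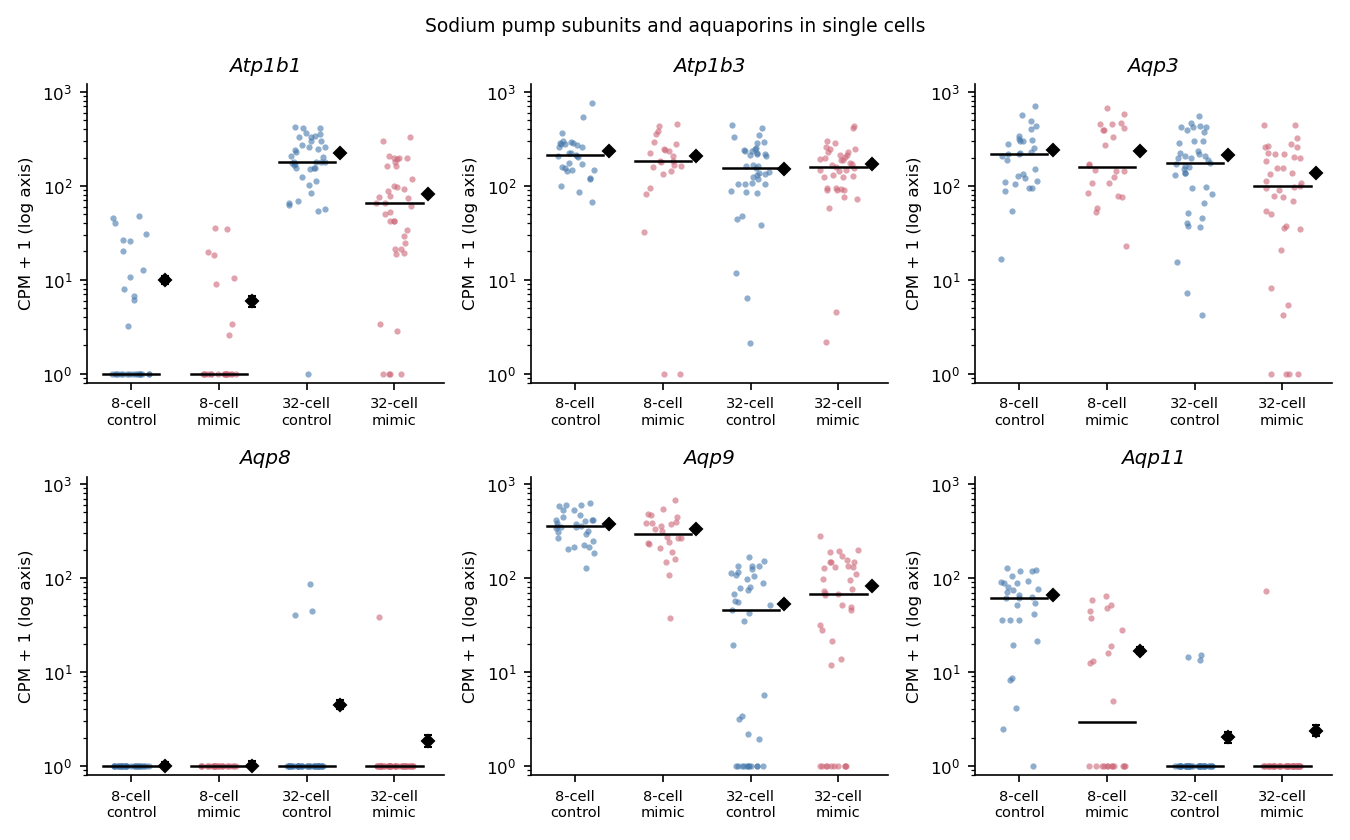
Levels of the 6 genes in single cells, as CPM + 1 on a log axis, for 8-cell control (30 cells), 8-cell mimic (24), 32-cell control (39) and 32-cell mimic (39). Each dot is 1 cell, control in blue and mimic in red. Black lines are medians over cells, and diamonds are pooled levels with exact Poisson 95% intervals. Atp1b1 is near 0 in most 8-cell cells and reaches a median of 180.3 CPM in 32-cell control and 64.9 CPM in 32-cell mimic cells, while Aqp9 and Aqp11 lie lower at the 32-cell stage.

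Aqp3 (chromosome 4, 41092722 to 41098183, minus strand) encodes an aquaglyceroporin of the basolateral membrane of many epithelia. It was at 238.8 CPM (233.9 to 243.9) in 8-cell control, 234.8 CPM (229.4 to 240.2) in 8-cell mimic, 214.4 CPM (210.6 to 218.2) in 32-cell control and 137.4 CPM (134.3 to 140.6) in 32-cell mimic cells. The 8-cell control cells ranged from 15.8 to 709.1 CPM with a median of 216.1, and the 8-cell mimic cells from 22 to 669.5 CPM with a median of 155.99. The 32-cell control cells ranged from 3.26 to 547.4 CPM with a median of 175.0, and the 32-cell mimic cells from 0 to 447.9 CPM with a median of 97.5. The order of the pooled levels was 8-cell control, 8-cell mimic, 32-cell control and 32-cell mimic. The intervals of both 8-cell groups overlapped, and the ranges over cells overlapped in every pair.

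The 32-cell difference in Aqp3 between mimic and control, a ratio of 0.641 (0.623 to 0.660), was not called. Within the 32-cell groups the runs of control cells stood at 230.8 and 189.9 CPM and those of mimic cells at 117.6, 187.7 and 108.2 CPM, in order of number, so that the second mimic run lay beside the lower control run. At the 8-cell stage, Aqp3 was higher in cells with Y-linked transcripts only than in cells with Xist only, at 336.3 against 184.7 CPM among controls and 309.1 against 192.2 CPM among mimic cells. The part of this split in the stage difference was not tested. With Xist-only cells alone at the 8-cell stage, the stage difference in control changed sign, from -0.16 to 0.21 on the log2 scale. This does not match the cells, since all 39 32-cell control cells had Y-linked transcripts. Their level was 214.4 CPM, against 238.8 CPM in all 8-cell control cells and 336.3 CPM in those with Y-linked transcripts only.

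Aqp9 (chromosome 9, 71110659 to 71168682, minus strand), a second aquaglyceroporin, stood at 135.2 CPM per kilobase in 8-cell control cells, beside 135.3 for Aqp3, and at 120.9 in 8-cell mimic cells, beside 133.0 for Aqp3. It was at 373.8 CPM (367.6 to 380.1) in 8-cell control and 334.3 CPM (327.9 to 340.8) in 8-cell mimic cells, with a count in all 54 cells. The lowest, median and highest cells were at 126.4, 357.9 and 636.6 CPM in control and at 36.6, 293.6 and 675.9 CPM in mimic. At the 32-cell stage its level was 52.5 CPM (50.7 to 54.5) in control cells, and mimic cells had 81.5 CPM (79 to 83.9). The 32-cell control cells ranged from 0 to 167.5 CPM with a median of 44.4, with a count in 28 of 39 cells, and the mimic cells ranged from 0 to 283.0 CPM with a median of 66, with a count in 29 of 39 cells.

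The level of Aqp9 was 7.12 times as high at the 8-cell as at the 32-cell stage in control and 4.10 times as high in mimic cells. Of the 39 32-cell control cells 34 lay below the lowest 8-cell control cell, and in mimic 15 of 39 did. The ratio of mimic to control was 0.894 (0.872 to 0.917) at the 8-cell stage and 1.55 (1.48 to 1.62) at the 32-cell stage, and neither difference was called. Within the 32-cell classes described below, the log2 difference of Aqp9 between treatments was 0.47 in TE-like and -0.32 in ICM-like cells. By medians over cells these were -0.06 and 0.16, and none was called. The 8-cell direction was the other within the block that holds both treatments, where the log2 difference was 0.64, from 334.3 CPM in 24 mimic and 214.2 CPM in 2 control cells. The antisense gene Gm32511 and the pseudogene Gm47268 overlap Aqp9 on the opposite strand.

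Aqp11 (chromosome 7, 97724006 to 97738289, minus strand) encodes an aquaporin of intracellular membranes. It was the 1 member called between treatments at the 8-cell stage, where 10.8% of 9693 genes were lower in mimic and 11% higher. It was at 65.3 CPM (62.7 to 68) in 8-cell control and 15.9 CPM (14.5 to 17.3) in 8-cell mimic cells, a ratio of 0.243 (0.220 to 0.268), and 3.37% of genes had a lower log2 difference. Of 30 control cells 29 had a count, with a lowest value of 0, a median of 60.8 CPM and a highest of 126.3 CPM. Of 24 mimic cells 12 had a count, with a lowest value of 0, a median of 1.96 CPM and a highest of 64 CPM. The ranges overlapped: 23 of 24 mimic cells lay below the control median, and 14 of 30 control cells lay above the highest mimic cell. After every cell was thinned to 500000 counts, 29 control and 11 mimic cells had a count.

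The Aqp11 difference at the 8-cell stage stood in the same direction in each split of the cells. It was 55.3 against 17.5 CPM (control against mimic) among cells with Xist only and 89.3 against 8.79 CPM among cells with Y-linked transcripts only. Without the 3 mimic cells of few genes the mimic level was 16.3 CPM. Over all alternatives the log2 difference ranged from -4.38 to -1.54. Control cells 87 and 88, whose numbers follow those of the mimic cells directly, were at 61.5 and 87.7 CPM, or 74.9 CPM pooled, and the other 28 control cells at 64.5 CPM. At the 32-cell stage Aqp11 was at 1.02 CPM (0.774 to 1.32) in control, with a count in 3 of 39 cells, and at 1.37 CPM (1.07 to 1.72) in mimic, where 1 of 39 cells held all of its counts. It passed the filter between stages only through the 8-cell groups.

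Aqp8 (chromosome 7, 123462291 to 123468004, plus strand) encodes a channel for water that also passes ammonia. It had 0 counts in 8-cell control and 8-cell mimic cells, which allows up to 0.0817 and 0.0971 CPM. At the 32-cell stage it was at 3.48 CPM (3.01 to 4.0) in control, from 3 of 39 cells at 39.7, 84.7 and 43.2 CPM, and at 0.826 CPM (0.60 to 1.11) in mimic, from 1 of 39 cells at 37.3 CPM. It stayed under the filter in all 4 comparisons of whole groups. The 32-cell control level was 42.6 times the limit of 3 counts over the 8-cell control group. Both levels rest on single cells: without control cell 79 the control level was 1.48 CPM, and without its 1 cell the mimic level was 0.

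The 32-cell cells were next separated by lineage, since the TE is the layer that forms the cavity. Clustering that left out the 6 genes and the transport genes named below gave 1 cluster in which 9 of 9 TE markers were higher (41 cells, TE-like) and 1 in which 9 of 9 ICM markers were higher (37 cells, ICM-like). The labels give no lineage. Control cells were 25 ICM-like and 14 TE-like, and mimic cells 12 ICM-like and 27 TE-like. The summed level of the 9 TE markers ranged from 8931 to 12887 CPM in TE-like control cells, from 858.4 to 14267 CPM in TE-like mimic cells, and from 639.1 to 4534 CPM in ICM-like cells of either treatment. The TE-like classes thus overlapped, with lower marker sums in part of the TE-like mimic cells, and the part of this in the treatment differences below was not tested. Placing cells by the sign of a marker score would move 6 TE-like and 1 ICM-like mimic cells, clusters of all genes would move 2 and 1, and either would move 0 control cells. The Y-linked gene Uty was among the 10 genes that led the ICM-like cluster, which holds most of the control cells.

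Aqp3 and Aqp9 were higher in TE-like than in ICM-like control cells, where 12.8% of 9882 genes were higher and 17% lower. Aqp3 was at 346.1 CPM (338.7 to 353.5) in TE-like and 115.9 CPM (112.2 to 119.7) in ICM-like control cells, a ratio of 2.99 (2.87 to 3.10). The TE-like control cells ranged from 94.5 to 547.4 CPM with a median of 382.7, and the ICM-like control cells from 3.26 to 286.9 CPM with a median of 134.8. Of 14 TE-like cells 10 lay above the highest ICM-like cell. Aqp9 was at 74 CPM (70.6 to 77.5) in TE-like cells, with a count in 12 of 14, and at 36.5 CPM (34.4 to 38.6) in ICM-like cells, with a count in 16 of 25. The log2 difference of Aqp9, 1.0005, lay at the threshold, and leaving out any 1 of 23 cells took it below. All Aqp8 counts of control cells lay in ICM-like cells, at 6.08 CPM (5.26 to 6.99). This level is 49.3 times the limit of 0.123 CPM that 0 counts allow in TE-like cells. Aqp8 passed the filter only through the ICM-like control cells, and the call rests on 3 cells, of which 1 (number 79) held 58.6% of the counts, and without cell 79, or without the next highest of the 3, the level fell under the filter.

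The sodium pump subunits differed less between the classes. Atp1b1 was at 270.1 CPM (263.6 to 276.7) in TE-like and 182.6 CPM (178.0 to 187.3) in ICM-like control cells, a ratio of 1.48 (1.43 to 1.53), with ranges of 68.1 to 423.3 and 0 to 413.1 CPM over cells and medians of 220.2 and 178.9 CPM. Atp1b3 was at 133.4 CPM (128.8 to 138.0) in TE-like and 164.3 CPM (159.9 to 168.7) in ICM-like control cells. Neither gene was called, and their cells overlapped over most of the range.

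In mimic cells Aqp9 was the 1 member called between the classes, where 13.3% of 10218 genes were higher in TE-like cells and 11.6% lower. It was at 102.6 CPM (99.4 to 105.8) in TE-like and 29 CPM (26.4 to 31.8) in ICM-like mimic cells, with a count in 23 of 27 and 6 of 12 cells. Aqp3 was at 134.4 CPM (130.8 to 138.2) in TE-like and 144.8 CPM (138.8 to 150.9) in ICM-like mimic cells, a ratio of 0.928 (0.883 to 0.976). The ICM-like mimic level of Aqp3 differed between runs, at 65.7 CPM in 6 cells of the first run and 244.7 CPM in 5 cells of the second. Without the second of these runs the log2 difference between the classes was 1.09 in place of -0.11. Whether the class difference itself differed between treatments was not tested.

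Between treatments within the TE-like class, Atp1b1 and Aqp3 were lower in mimic cells, where 9.84% of 9982 genes were lower and 17.6% higher. Atp1b1 was at 87.6 CPM (84.7 to 90.7) in TE-like mimic cells against 270.1 CPM in control, a ratio of 0.324 (0.311 to 0.338). The 27 mimic cells ranged from 0 to 331.4 CPM with a median of 64.9, and 15 of them lay below the lowest control cell. For Aqp3 the ratio was 0.388 (0.375 to 0.402). The 27 mimic cells ranged from 0 to 447.9 CPM with a median of 97.5 CPM, and 26 of them lay below the control median. The TE-like control runs differed in Aqp3, at 421.9 CPM in the first and 243.8 CPM in the second, and the TE-like mimic runs stood at 140.4, 149.3 and 117.05 CPM. Without the first control run the log2 difference of Aqp3 was -0.85 and no longer called, and within the block that holds both treatments it was -0.89, beside -1.59 for Atp1b1.

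Within the ICM-like class, Atp1b1 was lower in mimic cells, where 13.5% of 10183 genes were lower and 15.7% higher. It was at 67.5 CPM (63.5 to 71.8) in mimic against 182.6 CPM in control cells, a ratio of 0.370 (0.346 to 0.395). The 12 mimic cells ranged from 0 to 195.9 CPM with a median of 48.5, and 11 of them lay below the control median. Aqp8 was the other call, at 0 counts in 12 mimic cells, and it rests on the same 3 control cells. Aqp3 was at 144.8 CPM in mimic and 115.9 CPM in control cells, a ratio of 1.25 (1.18 to 1.32), opposite in direction to the TE-like class. Within the block that holds both treatments the log2 difference of Atp1b1 was -1.25, and Aqp8 fell under the filter. The contrast in Aqp3 between the classes was not tested, and without the second mimic run the ICM-like log2 difference was -0.88 in place of 0.32. The comparisons within the classes share cells with those between the classes, and each treatment comparison shares its groups with those of stage.

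**Figure D2:**
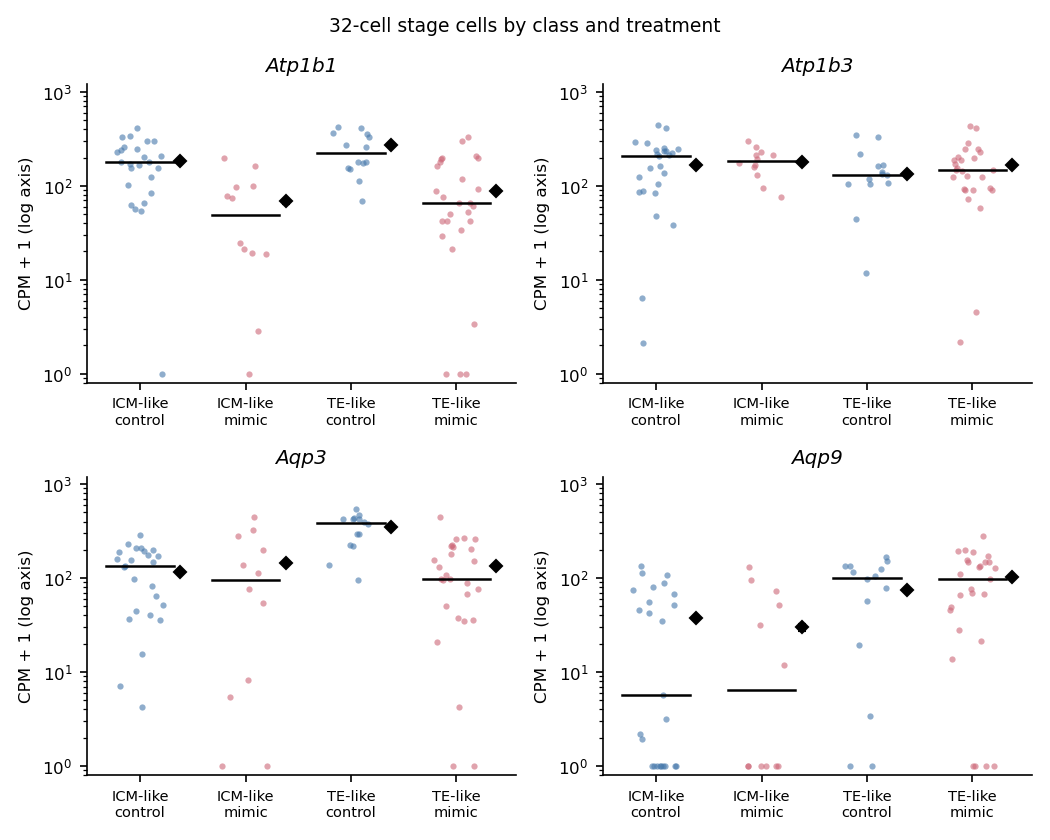
Levels of Atp1b1, Atp1b3, Aqp3 and Aqp9 in the 78 cells of the 32-cell stage, as CPM + 1 on a log axis, by class and treatment. Each dot is 1 cell, control in blue and mimic in red, black lines are medians and diamonds are pooled levels with exact Poisson 95% intervals. Atp1b1 is lower in mimic cells of both classes, and Aqp3 is highest in the 14 TE-like control cells.

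**Figure D3:**
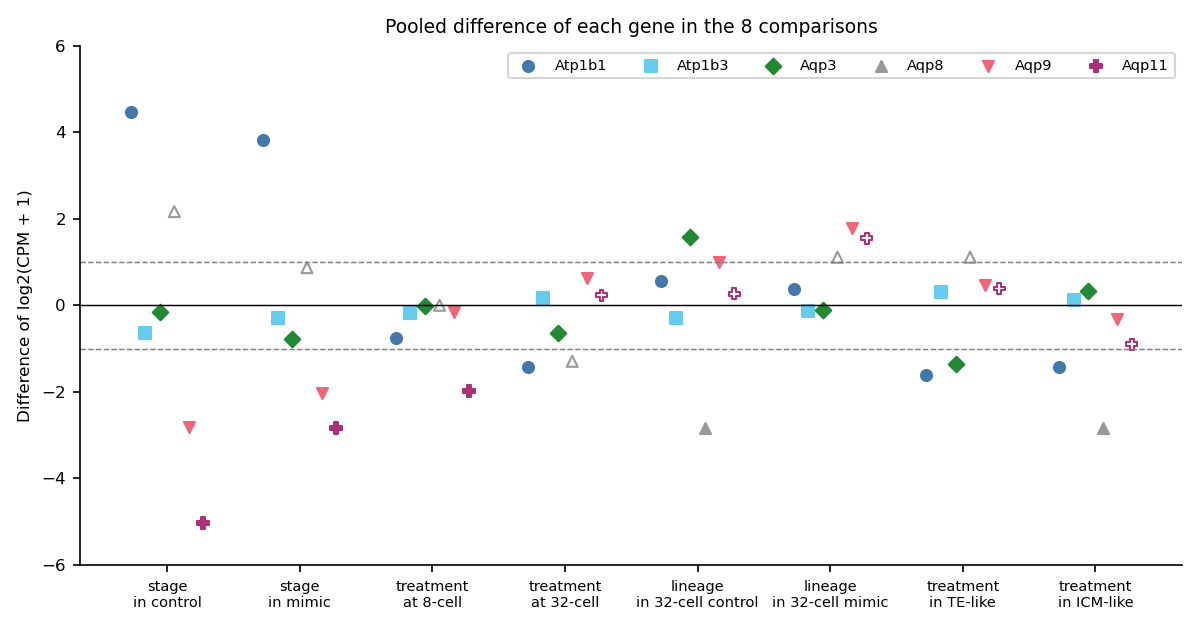
Difference of log2(CPM + 1) of each gene in the 8 comparisons. Stage is 32-cell against 8-cell, treatment is mimic against control and lineage is TE-like against ICM-like. Dashed lines mark the 2-fold rule, and open symbols are genes under 5 CPM in both groups. Atp1b1 lies above the upper line in both stage comparisons and below the lower line in the treatment comparisons at the 32-cell stage.

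**Figure D4:**
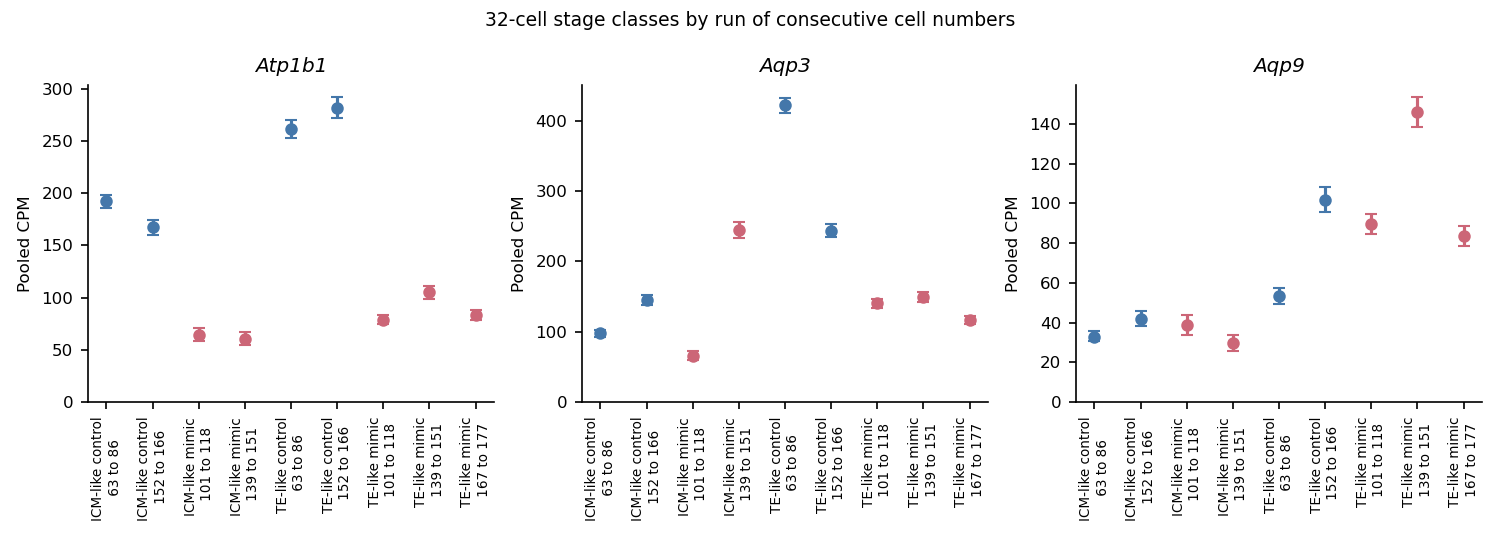
Pooled CPM of Atp1b1, Aqp3 and Aqp9 in the classes of the 32-cell stage, split by run of consecutive cell numbers (runs of 5 cells or more), with exact Poisson 95% intervals, control in blue and mimic in red. Every control run of Atp1b1 lies at 167.2 CPM or more and every mimic run at 105.2 CPM or less, while the TE-like control runs of Aqp3 stand at 421.9 and 243.8 CPM.

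Across single cells, Spearman correlations are given as descriptions, since the cells share embryos, treatment and library preparation. Over the 39 32-cell control cells Aqp3 correlated with the TE markers Gata3 (0.74), Krt18 (0.67) and Krt8 (0.63), and with Aqp9 at 0.49. Over the 39 32-cell mimic cells the values for Aqp3 were 0.21, -0.05 and -0.08 with these markers and -0.08 with Aqp9. Aqp9 correlated with Krt8 at 0.45 in control and 0.55 in mimic cells. Atp1b1 correlated with Aqp3 at 0.18 in control and -0.07 in mimic cells. Atp1b3 correlated with the total count of the cell at -0.50 in 32-cell control cells and 0.04 in mimic cells.

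The genes most like each member over the 78 32-cell cells, of 6840 genes at a mean of 20 CPM or more, were ranked by the same measure. For Atp1b1 they were Pfn1 (0.54), 1810037I17Rik (0.52) and the Y-linked Eif2s3y (0.50). Within control cells alone these 3 values were 0.20, 0.11 and 0.014, and within mimic cells alone 0.51, 0.50 and 0.23. For Aqp3 they were Zmpste24 (0.52), Flvcr2 (0.52) and Tada1 (0.50), at 0.70, 0.66 and 0.69 within control cells and 0.41, 0.33 and 0.18 within mimic cells. For Aqp9 they were Litaf (0.54), the TE keratin Krt8 (0.51) and Tfeb (0.49). For Atp1b3 they were Rnf216 (0.47), P2rx4 (0.40) and Mtpap (0.40).

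Other genes of ion and water transport were counted from 4 lists. Of 9 relatives of the sodium and proton pumps, 5 reached 5 CPM in a group, and from 8-cell to 32-cell control cells 1 was higher (Atp12a) and 1 lower (Atp1b2) of 3 that passed the filter, where 31.1% of all genes were higher and 22.5% lower. Atp12a and Atp1b2 passed the filter only through the group in which they were higher, so these counts, and those of the short lists below in the same comparison, describe single genes. Atp12a, the non-gastric proton and potassium pump, had 0 counts at the 8-cell stage in either group and was at 53.4 CPM (51.5 to 55.3) in 32-cell control and 26.1 CPM (24.8 to 27.5) in 32-cell mimic cells, with a count in 22 and 11 of 39 cells. A single mimic cell held 40.4% of the mimic counts, and without it the mimic level was 16 CPM. In ICM-like mimic cells it had 0 counts, which allows up to 0.196 CPM, against 32.0 CPM in ICM-like control cells. The log2 difference of Atp12a between treatments at the 32-cell stage, -1.004, lay at the threshold, and it ranged from -1.67 (without that mimic cell) to -0.72 when single cells were left out. Atp1b2 was at 7.43 CPM or more in the 8-cell groups and at 2.07 CPM or less in the 32-cell groups. Atp4a, the catalytic subunit of the gastric proton pump, was at 6.35 CPM in 32-cell mimic cells, with a count in 6 of 39, and at 1.95 CPM in 32-cell control cells, a call of higher in mimic (log2 difference 1.32) that was lost without 1 of 2 cells, at 0.81 without a single mimic cell. In that comparison Atp4a passed the filter only through the mimic group, in which it was higher.

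Of 7 FXYD genes, which encode small regulators of the sodium pump, Fxyd4 and Fxyd6 reached 5 CPM, and from 8-cell to 32-cell control cells Fxyd6 was higher and Fxyd4 lower, the latter no longer by the rule without 1 of 2 cells. Fxyd4 was at 16.6, 10.5, 7.28 and 8.34 CPM in 8-cell control, 8-cell mimic, 32-cell control and 32-cell mimic cells. Fxyd6 was at 1.09 CPM in 8-cell control cells, from 1 cell, at 0 in 8-cell mimic cells, and at 12.4 and 5.94 CPM in 32-cell control and mimic cells. In TE-like cells Fxyd6 was at 24.7 CPM (22.8 to 26.8) in control and 6.85 CPM (6.04 to 7.73) in mimic, and at 15.7 and 4.54 CPM without the highest cell of each. Of 8 other aquaporin genes (Mip and Aqp1, Aqp2, Aqp4, Aqp5, Aqp6, Aqp7, Aqp12), 0 reached 5 CPM in a group and 5 had no count in any cell.

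Of 10 genes of sodium, chloride and bicarbonate transport, 3 reached 5 CPM and 6 had no count, and between the stages in control 1 was higher and 1 lower. Between treatments, 2 of these genes passed the filter at the 8-cell stage and 3 at the 32-cell stage, and 0 were called. Of all genes that passed, 10.8% were lower and 11% higher in mimic at the 8-cell stage. At the 32-cell stage 7.38% were lower and 11.5% higher, so counts this small describe single genes and not the list. Slc12a2, which encodes a cotransporter of sodium, potassium and chloride, was at 928.6 CPM (918.8 to 938.6) in 8-cell control, 558.0 CPM (549.7 to 566.4) in 8-cell mimic, 69.99 CPM (67.8 to 72.2) in 32-cell control and 42.3 CPM (40.5 to 44.0) in 32-cell mimic cells. Its 3′ UTR holds 1 match to the whole 8-base letters CTTGTATA, which 3.11% of genes hold, and its mimic to control ratio was 0.601 (0.590 to 0.612) at the 8-cell and 0.604 (0.573 to 0.636) at the 32-cell stage, neither of which was called. Within the ICM-like class it was at 41.4 CPM in mimic and 96.3 CPM in control cells, a call that was lost without 1 of 2 cells (without control cell 63 the log2 difference was -0.69 in place of -1.20). Within the TE-like class it was at 42.6 CPM in mimic and 34.8 CPM in control cells, a ratio of 1.22 (1.12 to 1.33), a direction that rests on 1 mimic cell, without which the log2 difference was -0.023 in place of 0.28. The part of the match in these ratios was not tested. Slc4a2, an exchanger of chloride and bicarbonate, was at 0.0544 and 1.59 CPM in the 8-cell groups and at 16 and 18.5 CPM in the 32-cell groups, with the 8-cell mimic level at 0.773 CPM without cell 85, and it overlaps Fastk on the opposite strand.

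**Figure D5:**
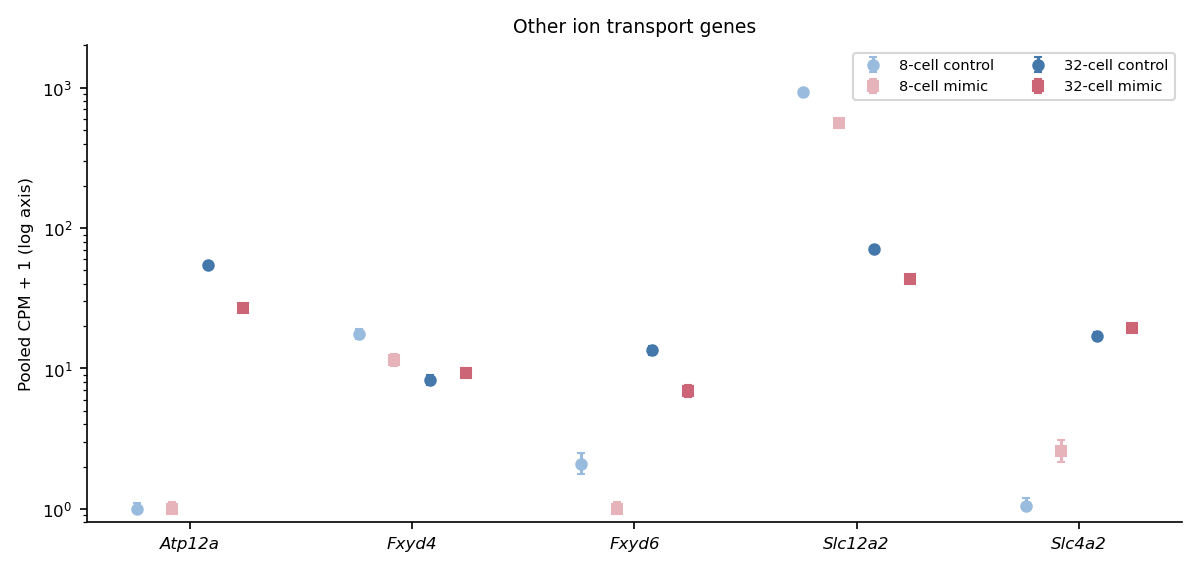
Pooled levels of 5 other transport genes in the 4 groups, as CPM + 1 on a log axis with exact Poisson 95% intervals. Slc12a2 is lower and Atp12a, Fxyd6 and Slc4a2 are higher at the 32-cell stage.

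The windows from 250 bases before to 50 bases after each annotated start (RefSeq, GRCm38) differed in base composition among the 6 genes. The G and C share was 71% for Atp1b1, 74.7% and 76% for the starts of Atp1b3, 64% for Aqp3 and 68% for Aqp11, and 52% for Aqp8 and 43.7% and 41.3% for the starts of Aqp9, against a median of 52.7% over 32851 promoters. On either strand, the letters GGAATG (a TEAD motif; 14.7% of all windows) lay in the window of Aqp8 alone, TATAAA (13.6%) in that of Aqp3 alone and GCCNNNGGC (a TFAP2 motif; 16.6%) in 1 window of Atp1b3, while AGATAA (a motif of GATA factors; 11.2%) lay in none of them. These letters are a description and no measured site.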

How the data were processed

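Single cells were sequenced with Smart-seq2. Per the labels and the study's methods, the authors aligned reads to mm10 with STAR (2.5.1b) and estimated counts with RSEM (1.3.0). The values they deposited are raw expected counts; all are whole numbers, so they appear to have been rounded and needed none here. The study's filter (at least 3000 genes, under 10% mitochondrial counts) removed 0 of 132 cells. Counts of 13 mitochondrial genes were left out, and counts were summed per group and divided by the summed total (CPM). No doublet caller was run.

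Each group was 1 sample, so no test, p-value or standard error was computed. Log2 differences used a pseudocount of 1. Poisson intervals and intervals of ratios (exact binomial) are 95%. The calculation of the rule of size was run on simulated Poisson counts, which vary neither between cells nor between embryos. This checks the calculation and not the calls made here. Lineage classes came from Seurat (5.3.0; R 4.3.3; 2000 variable genes, 25 principal components, resolution 0.8, raised from 0.6) on alternate genes in alphabetical order without the members and transport genes, and were named from 9 ICM markers (Fgf4, Fgfr1, Gata6, Gdf3, Klf2, Nanog, Pdgfra, Spic, Tdgf1) and 9 TE markers (Dab2, Elf3, Eomes, Fgfr2, Gata3, Id2, Krt18, Krt8, Tspan8). Xist and the sum of 4 Y-linked genes were read as present at 20 CPM. Named genes were the 6 members, transport genes at 5 CPM or more in a group (some are not reported here), and for each member with a count in at least 39 of the 78 32-cell cells the 3 genes of highest correlation; Aqp8 within the classes was named as a member. Scaling alternatives used edgeR (4.0.16) and DESeq2 (1.42.0) factors on the counts. Coordinates and 3′ UTRs come from GENCODE M21 (mm10), which may differ from the annotation used for counting. The members and lists were chosen with earlier results of these data known.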

Additional observations from a re-analysis of the deposited data

How the results depend on the processing

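The counts of members called were recomputed over the 8 comparisons and stayed within 1.5 times the reported count in 124 alternatives and left that range in 17. Between treatments at the 8-cell stage the count was 2 in place of 1 in cells with Xist only and within the block of numbers that holds both treatments (Atp1b1 at a log2 difference of -2.02 against 2 control cells), and 1 to 2 when single cells were left out. At the 32-cell stage it was 2 in place of 1 with no filter on low values. Between classes in control cells it was 1 in place of 3 with a pseudocount of 10 and without ICM-like cells 63 to 86, and 1 to 3 when single cells were left out. Between classes in mimic cells it was 3 in place of 1 with no filter and 2 without the ICM-like cells of the second mimic run. Between treatments it was 1 in place of 2 in TE-like cells without control cells 63 to 86 and within that block. In ICM-like cells it was 1 in place of 2 with medians of single cells, a pseudocount of 10, a filter of 20 CPM, without control cells 63 to 86 or within that block, and 1 to 2 when single cells were left out. Of single members called, 0 turned in direction. Atp1b1 kept its call in every alternative of both stage comparisons and of the 3 treatment comparisons at the 32-cell stage, with log2 differences from -1.86 to -1.22 in the latter. Leaving out the 3 8-cell mimic cells of few genes, leaving out each cell in turn and comparing within blocks were alternatives chosen after seeing the data. Scaling by ratios of counts moved all genes by -0.12 and -0.17 (log2) between stages in control and mimic and by -0.10 between treatments in TE-like cells, and changed no call of a member. No paired analysis was possible because no result comes from a test, and title numbers that groups share only number cells. The intervals hold the counting error of reads alone, some levels rest on single cells, and the spread between embryos is unknown.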
